A study of Mus musculus with 6 samples.

Results

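Rod photoreceptor nuclei were picked out of single-nucleus RNA sequencing of whole rd10 mouse retinas at postnatal day 20 (P20). A nucleus was taken as a rod when at least 3 of 7 rod genes had a unique molecular identifier (UMI, the tag that counts 1 captured transcript). These genes were Pde6a, Pde6b, Esrrb, Samd7, Nr2e3, Cnga1 and Rp1. A nucleus with any UMI of Arr3, Pde6c, Trpm1, Slc17a6, Abca8a, Gad1, Slc6a9 or Inpp5d, which mark cones, other neurons, Muller glia and microglia, was not taken. Of 56634 barcodes, 56205 nuclei passed the depth filter (over 500 UMIs and 200 or more genes, with less than 5% of UMIs from mitochondrial genes), and 8166 of these (14.5%) with at most 6000 UMIs met the rod rule. The 15 genes of the rule were set aside from all results below.

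Rods are the dim-light photoreceptors and the most common neuron of the mouse retina. Light captured in the outer segment sets off the G protein transducin, which activates the cGMP phosphodiesterase, and closure of the cGMP-gated channels changes glutamate release at a ribbon synapse. In the rd10 mouse a mutation in Pde6b, the beta subunit of that phosphodiesterase, leads to loss of rods and later of cones.

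All 6 mice carried the rd10 allele (strain B6.CXB1-Pde6b-rd10/J). At P18, 3 had received saline and 3 had received 20 ng of recombinant interleukin 27 (IL-27), a cytokine of the interleukin 6 family, into the vitreous of 1 eye. The retina was taken 2 days later, at P20, and flash frozen, and nuclei were isolated with a 10x Genomics kit; 1 library was made from each of 3 retinas per group. The saline libraries are numbered replicate 1, 2 and 6 and the IL-27 libraries replicate 4, 5 and 10, as in the labels. By the account of the study this age lies ahead of the main wave of rod death in the strain. No wild-type or uninjected retina was analysed here, so that no value below compares a dying rod with a healthy one.

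The libraries held 8968 to 9965 barcodes and 1007 to 1999 rods each, with rod sums of 1457726 to 2987874 UMIs. Any pair of libraries shared 18 to 30 barcodes, of which 0 to 3 were rods in both. A doublet caller marked 156 rods (1.91%), and 88 of these were in IL-27 replicate 10. Saline replicate 2 and IL-27 replicate 5 had Xist at 910 and 919 CPM in rods, while the other 4 libraries were at 0.00 to 1.26 CPM, so that each group held 1 female and 2 male retinas. Levels are given in CPM, the usual scaling of the UMIs of a gene by the summed rod UMIs of the library.

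Rods made up 12.0%, 16.0% and 10.8% of retained nuclei in saline replicates 1, 2 and 6. In IL-27 replicates 4, 5 and 10 they made up 16.4%, 10.9% and 21.3%. The highest share, in IL-27 replicate 10, lay above all saline libraries, but the groups overlapped (12.9% ± 2.74 against 16.2% ± 5.18, SD, n = 3 each, exact two-sided permutation test p = 0.4, adjusted p = 0.5 over 4 library measures, smallest possible p = 0.1). The median rod held 1356, 1354 and 1339.5 UMIs with saline and 1273, 1316 and 1323 UMIs with IL-27. All 3 IL-27 libraries were lower, by 45.8 UMIs on average, at the smallest p the design allows (exact permutation p = 0.1, adjusted p = 0.2). The median number of genes per rod was also lower in each IL-27 library (912.5 to 946) than in each saline library (955 to 969), with the same p. Mitochondrial genes gave 0.785% to 1.04% of rod UMIs and did not separate the groups (exact permutation p = 0.5).

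**Figure D1:**
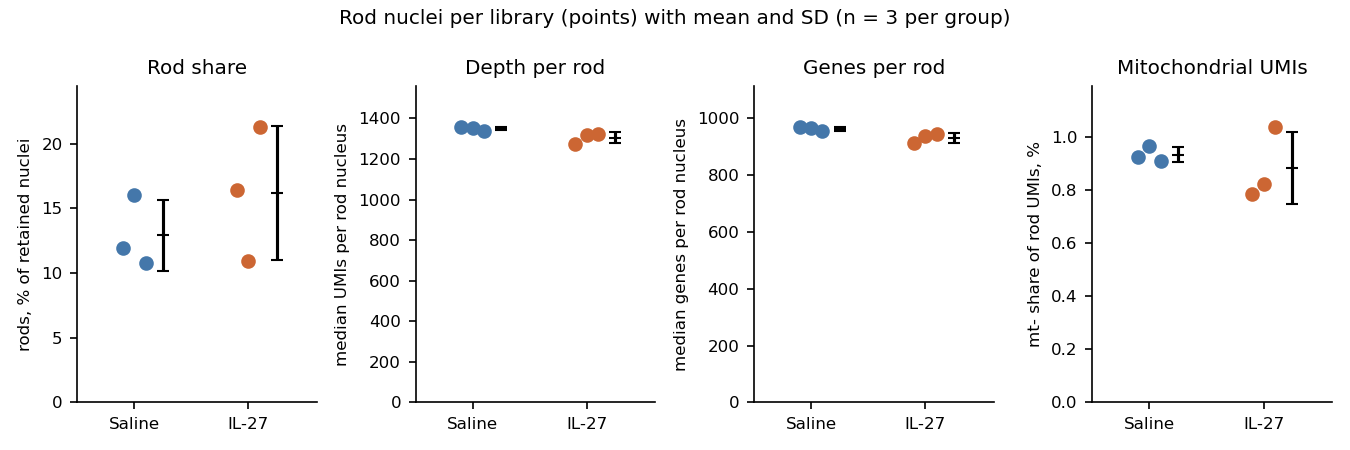
Each point is 1 library, with blue for saline and orange for IL-27, and bars show the mean and SD of 3 libraries. From left to right the vertical axes give the rod share of retained nuclei (%), the median UMIs and median genes per rod, and the mitochondrial share of rod UMIs (%), and IL-27 replicate 10 is the point at 21.3% in the first panel and at 1.04% in the last.

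The rule sets a sharp edge through a continuous population. Of the rods, 2346 had a UMI of exactly 3 of the 7 genes, 2597 of 4, 1984 of 5, 943 of 6 and 296 of all 7. Nuclei with 3 rod genes, just inside the rule, had Sag, the rod arrestin, at 3807 CPM, and the 1581 nuclei with 2, just outside it, had Sag at 2551 CPM. Near the depth limits, 45 rods had 501 to 550 UMIs and 26 had 5501 to 6000, and 32 nuclei that otherwise met the rule had more than 6000 and at most 6500. A further 5966 of 14132 nuclei with at least 3 rod genes (42.2%) were set aside because they held a UMI of an excluded gene, and these had Sag at 3043 CPM. The share set aside was 45.1%, 40.6% and 47.2% in saline replicates 1, 2 and 6. In IL-27 replicates 4, 5 and 10 it was 40.4%, 41.1% and 40.6%. The rod shares given above are therefore those of nuclei that met the rule. Among the 8166 rods, 4005 held at least 1 UMI of 5 Muller glia genes. Whether these transcripts were made in the rod or captured from another cell was not tested.

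Genes that the rule did not use also marked these nuclei as rods. Set against 6 other types defined by their own marker genes, 18 of 20 phototransduction genes had their highest mean in rods. Gnat1, the alpha subunit of rod transducin, was at 570, 530 and 518 CPM with saline and 513, 356 and 570 CPM with IL-27, 7.25 times the cone mean of 70.3 CPM. Gnb1, the beta subunit of rod transducin, was at 1582 to 1942 CPM, 4.95 times its next highest type. Sag was at 4176, 4254 and 4275 CPM with saline and 4011, 3636 and 4156 CPM with IL-27, had a UMI in 95.5% of rods, and stood 1.80 times over its cone mean of 2266 CPM. Pdc, phosducin, which binds transducin beta-gamma subunits, was at 705 to 1182 CPM, 2.93 times its cone level. The smaller ratios of Sag and Pdc are those of genes that cones also express.

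Genes of the cGMP and calcium cycle of the outer segment stood further above the other types. Cngb1, the beta subunit of the rod cGMP-gated channel, was at 503, 479 and 442 CPM with saline and at 511, 473 and 490 CPM with IL-27. Its next highest mean was 52.1 CPM, in bipolar nuclei. Slc24a1, the rod sodium-calcium-potassium exchanger, ranged from 315 to 343 CPM over the 6 libraries, against a cone mean of 27.5 CPM. Gucy2f, a guanylate cyclase that makes cGMP in photoreceptors, was at 343, 340 and 342 CPM in saline and 362, 364 and 309 CPM in IL-27, and its next highest mean was 33.8 CPM, in Muller nuclei. The highest library was 1.16 times the lowest for Cngb1, 1.09 times for Slc24a1 and 1.18 times for Gucy2f, against 1.68 times for Pdc.

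Samd11, a gene of the photoreceptor Polycomb complex that also holds the rule gene Samd7, was at 400, 436 and 367 CPM in saline and 445, 396 and 437 CPM in IL-27. Its cone mean was 24.4 CPM, a ratio of 17.0. The upstream sequence of Samd11, Cngb1 and Gucy2f is shown because each holds 2 copies of the letters TAATCC or their reverse complement GGATTA, the core recognised by the photoreceptor factor Crx, printed in capitals. The windows are the 250 bases before the gene start in RefSeq on GRCm38.p6, 5′ to 3′ on the strand of the gene: chr4:156255343-156255592 (minus strand) for Samd11, chr8:95306586-95306835 (minus strand) for Cngb1 and chrX:142196937-142197186 (minus strand) for Gucy2f.
Samd11: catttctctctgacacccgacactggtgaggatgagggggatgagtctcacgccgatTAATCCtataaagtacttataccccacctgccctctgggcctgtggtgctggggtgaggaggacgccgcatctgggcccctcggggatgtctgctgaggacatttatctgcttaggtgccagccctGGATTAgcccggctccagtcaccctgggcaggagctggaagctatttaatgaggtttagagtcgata
Cngb1: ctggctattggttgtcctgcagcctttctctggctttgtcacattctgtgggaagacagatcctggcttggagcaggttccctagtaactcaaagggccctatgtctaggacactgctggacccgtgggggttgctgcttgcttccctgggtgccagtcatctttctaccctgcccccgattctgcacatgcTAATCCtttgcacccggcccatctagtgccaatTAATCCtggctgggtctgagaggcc
Gucy2f: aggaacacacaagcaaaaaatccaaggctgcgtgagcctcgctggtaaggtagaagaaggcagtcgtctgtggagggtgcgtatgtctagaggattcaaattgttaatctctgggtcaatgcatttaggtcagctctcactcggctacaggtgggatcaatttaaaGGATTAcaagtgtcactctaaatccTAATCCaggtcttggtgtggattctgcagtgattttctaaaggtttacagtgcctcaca

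The copies begin 193 and 67 bases before the start of Samd11, 58 and 25 bases before that of Cngb1, and 84 and 59 bases before that of Gucy2f. Among the 20 genes with the highest ratio of rods to any other type, 14 had a window in the table, with 18 windows in all. Of these windows, 4 (22.2%) held TAATCC or GGATTA on either strand, those of Samd11, Zan, Cngb1 and Gucy2f, against 2054 of 32851 windows (6.25%) over all genes. TGCTGA or TCAGCA, the half-site of the rod factor Nrl, was in 5 of the 18 (27.8%) and in 5282 of all windows (16.1%). These 5 windows belong to 4 genes, with overlapping windows of Gramd2 among them. A match is a run of letters and not a bound site.

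Among the photoreceptor transcription factors, Nrl, which drives rod over cone fate, had a rod mean 9.04 times its cone mean of 34.8 CPM. Its values were 342, 322 and 332 CPM in saline and 313, 233 and 344 CPM in IL-27, with IL-27 replicate 5 below the others. Crx, which acts in rods and cones alike, was at 332 to 485 CPM in rods and averaged 429 CPM in cones. Casz1, a zinc-finger factor of photoreceptors, was at 776 to 931 CPM, 1.75 times its cone mean. Of the 19 factors listed, 5 had their highest mean in rods.

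**Figure D2:**
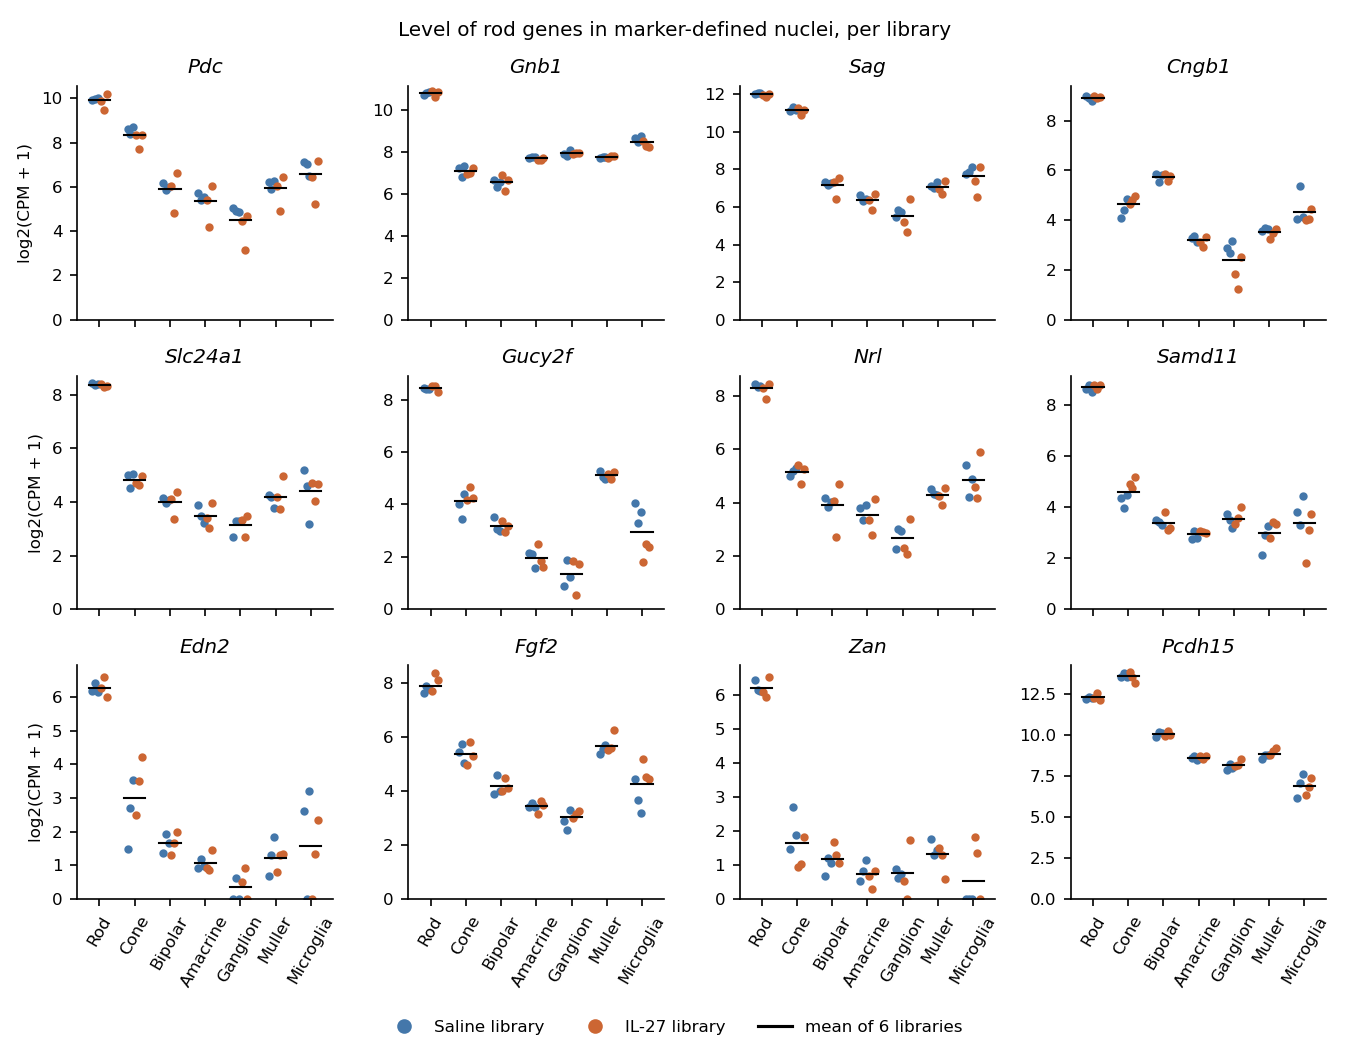
Each panel plots 1 gene as log2(CPM + 1) of the summed nuclei of each marker-defined type, with 1 point per library (blue, saline; orange, IL-27) and a line at the mean of 6 libraries. Pdc, Cngb1, Nrl, Samd11, Edn2 and Zan stand highest in rods, Sag is close behind in cones, and Pcdh15 is higher in cones (12499 CPM) than in rods.

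The genes with the highest ratios were mostly not phototransduction genes. Gm11342 led with a rod mean 39.0 times its cone mean of 3.14 CPM, at 113, 129 and 125 CPM in saline and 161, 89.9 and 119 CPM in IL-27. Zan, which encodes zonadhesin, a sperm protein that binds the egg coat, followed at 86.1, 70.1 and 68.6 CPM in saline and 66.0, 60.4 and 91.7 CPM in IL-27, against 2.42 CPM in cones. Gm14505 and Gm14216 had ratios of 20.5 and 19.4. Cdr2, an antigen of paraneoplastic cerebellar degeneration, had a ratio of 14.8 and was at 184 to 225 CPM in 5 libraries but at 95.4 CPM in IL-27 replicate 10. Cmah (12.2), Lrrc2 (11.5) and Nt5e (10.8), a sialic acid hydroxylase, a leucine-rich repeat gene and the ecto-5′-nucleotidase found on rods, completed the named protein-coding genes above Gucy2f, besides Gramd2. Of the 20, 8 carry Gm or Rik names. No test was made of any of these ratios, since the nuclei had been chosen by rod genes.

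Of the genes of energy metabolism, all 13 mitochondrially encoded genes had their highest mean in rods, with a sum of 9068 CPM against 6616 CPM in microglia and 6205 CPM in cones. Of 86 nuclear genes of oxidative phosphorylation, 74 were highest in rods (6484 CPM in sum, against 4844 CPM in cones). Of 27 glycolysis and lactate genes, 13 were highest in rods, and of 83 ribosomal protein genes 22 were. For these and the other lists, the share of all genes that were highest in rods was not counted. Ldha, lactate dehydrogenase A, was at 276 to 301 CPM in all 6 libraries, 2.31 times its cone mean. Hk1, hexokinase 1, was at 323 to 419 CPM, 2.70 times its cone mean. Hk2 was higher in microglia (408 CPM) than in rods (351 CPM), and Ckb of the same list in cones (401 against 393 CPM). Mitochondrially encoded transcripts are made outside the nucleus. Apoe, which is no rod gene, was also higher in rods (856 CPM) than in cones (484 CPM) or bipolar nuclei (265 CPM), and Ttr, a gene of the pigmented epithelium, was at 23.2 CPM in rods and at most 14.7 CPM in the 6 other types. Among nuclei of at least 1000 UMIs, median depth was 1387 to 1550 UMIs in rods sorted by Fgf2 and 2002 to 10236 UMIs in the other types. The part of depth and of transcripts from outside the nucleus in these ratios was not tested.

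Of the 37 outer segment and cilium genes measured, 29 were highest in rods. Prph2, peripherin, which shapes the disc rim, was at 991 to 1159 CPM and 3.02 times its cone mean, and Prom1, prominin 1, needed for disc formation, was at 1159 to 1437 CPM and 2.21 times. Pcdh15, a protocadherin of the calyceal processes, went the other way at 4580 to 6072 CPM in rods and 12499 CPM in cones. At the synapse, 12 of 30 genes were highest in rods. Cplx4, a complexin of ribbon synapses, was at 507 to 766 CPM, 1.94 times its cone mean, whereas Rims2, an active-zone scaffold, was at 1821 to 2130 CPM in rods and 1996 CPM in cones.

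Marker genes of other cell types were also counted in rods. None was highest there, apart from 2 of 10 pigmented epithelium genes, a tissue that was not compared. The summed markers of each of the 6 other types were lower in rods than in the type they mark. The other types had themselves been taken by marker genes, and rods by the absence of UMIs of some genes that mark other types. The choice of nuclei therefore set the direction of these differences at least in part, and they do not test rod purity. In sum, bipolar markers were at 1455 CPM in rods and 10167 CPM in bipolar nuclei, and cone markers at 796 CPM in rods and 10078 CPM in cones. Single markers came closer, with Gnb3, the cone transducin beta subunit, at 507 CPM in rods and 1103 CPM in cones. The cone marker Opn1mw, the green cone opsin, was at 22.6 to 43.9 CPM in rods against 2736 CPM in cones, and the microglial receptor Cx3cr1 was at 32.7 to 40.5 CPM against 572 CPM in microglia. Summed over 12 genes, Muller markers were at 1526 to 1975 CPM in rods and 6670 CPM in Muller nuclei, and none of the 12 was at 0. Apoe, a lipoprotein gene of Muller glia and microglia, was lower in deeper rods, at 1297 CPM in rods of 1000 UMIs or fewer, 920 CPM up to 2000 UMIs and 519 CPM beyond. Nrl went in the same order, at 401, 316 and 272 CPM, while Cngb1 was at 483, 500 and 443 CPM. Prkca, the kinase known as a rod bipolar marker, was at 901 to 1098 CPM in rods, above its cone mean of 99.3 CPM and below its bipolar mean of 6414 CPM.

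A small set of rod nuclei carried a second profile. The set was defined after its values were seen, as nuclei with 3 or more UMIs of Grik1, a kainate receptor of OFF bipolar cells. It held 58 of 8166 rods (0.710%), 6 to 12 in each library, and 41 of them had 10 or more Grik1 UMIs. Their median depth was 3566 to 4924 UMIs in the 6 libraries, against 1271 to 1351 for the other rods. Along with Grik1 they held Cabp5, a calcium-binding protein of bipolar cells, at 165 against 19.5 CPM in other rods, and the GABA receptor subunit Gabra5 at 1271 against 14.9 CPM. Their rod genes were lower, with Sag at 1276 against 4160 CPM and Nrl at 165 against 322 CPM. These 58 nuclei held 2912 of the 3477 Grik1 UMIs in rods, and Grik1 ranged from 201 to 445 CPM over the rod sums. They were left out of the comparisons within rods given further on.

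IL-27 was compared with saline over the rod sums of 3 libraries each. None of 12120 genes tested passed an adjusted p of 0.05 in edgeR in either direction (0% called), and DESeq2 also called 0. At an unadjusted p under 0.05, 427 genes (3.52%) differed, of which 214 were higher (1.77%) and 213 lower (1.76%), and 6197 of the 12120 (51.1%) lay above 0 with a median of 0.00 on the log2 scale. In 1044 genes (8.61%) the 3 libraries of a group did not overlap those of the other group. The 95% interval of a gene reached 0.40 to either side of its log2 difference at the median, 0.23 for genes of at least 100 CPM and 0.76 for genes under 10 CPM.

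The receptor chain particular to IL-27 was close to absent from the rod counts. Il27ra had 1 UMI in all 8166 rods, in IL-27 replicate 10. It averaged 0.679 CPM in microglia and 0.0504 CPM in Muller nuclei, so that its counts were low there too. Il6st, the gp130 chain that IL-27 shares with other cytokines, was at 54.0, 65.9 and 59.1 CPM in saline and 63.7, 77.5 and 68.6 CPM in IL-27 (log2 difference 0.22, edgeR unadjusted p = 0.13). Jak1, a kinase bound to gp130, was at 65.9 to 88.1 CPM. Il27ra was looked up after the other values had been seen.

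The gene closest to the threshold among those higher with IL-27 was Prss56, a secreted serine protease that in the retina is made by Muller glia. In rods it was at 0, 5.07 and 1.26 CPM in saline and at 14.7, 17.1 and 28.8 CPM in IL-27. Every IL-27 library lay above every saline library, with a log2 difference of 3.14 (95% interval 1.93 to 4.34, edgeR unadjusted p = 0.000104, adjusted p = 0.63). Without saline replicate 2 the difference was 4.99 and passed (adjusted p = 0.010). It also passed in rods without a UMI of 5 Muller genes (3.01, adjusted p = 0.040), in rods thinned to 1000 UMIs (3.21, adjusted p = 0.040) and without nuclei of outlying depth (3.81, adjusted p = 0.021).

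Prss56 was not particular to rods. Muller nuclei had it at 9.08, 11.4 and 4.26 CPM in saline and at 69.4, 94.6 and 249 CPM in IL-27, a log2 difference of 3.995. The amacrine log2 difference was 4.15, from 0.226 to 0.369 CPM in saline to 3.74 to 7.55 CPM in IL-27, and the bipolar one was 2.80. The rod response minus the Muller response was -0.83 on the log2 scale (SE 0.66, edgeR unadjusted p = 0.22). In each of these types IL-27 replicate 10 was the highest library. The summed Muller markers in rods were at 1771 to 1975 CPM in saline and 1526 to 1945 CPM in IL-27. The part of Prss56 transcripts from Muller nuclei in the rod counts was not tested.

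The other named genes higher with IL-27 did not pass the adjusted test. Cdh10, a cadherin, was at 3.38, 7.84 and 4.40 CPM in saline and 15.1, 12.3 and 11.4 CPM in IL-27 (log2 difference 1.26). Lmbr1, a membrane gene next to Shh whose intron holds a limb enhancer, was at 67.0, 60.8 and 61.7 CPM against 90.7, 82.3 and 85.3 CPM, a tight separation of small size (0.46, unadjusted p = 0.0016 in edgeR). Ppp2r1b, a scaffold subunit of protein phosphatase 2A, was at 17.5, 18.9 and 17.0 CPM against 24.3, 26.8 and 38.8 CPM (0.78). These 3 genes and Lrrc7 (0.93), a postsynaptic density gene, were picked because their groups do not overlap, as in 491 genes above (4.05%).

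Crhbp, the binding protein of corticotropin-releasing hormone, had the smallest p on the lower side. It was at 12.9, 10.6 and 7.55 CPM in saline and at 0.458, 2.06 and 3.35 CPM in IL-27. The groups did not overlap, as in 553 genes lower (4.56%), and the log2 difference was -2.28 (95% interval -3.25 to -1.32, edgeR unadjusted p = 8.59e-05, adjusted p = 0.63). Nefl, the light neurofilament chain known from ganglion cells, was at 72.1, 55.8 and 65.4 CPM against 47.2, 32.2 and 38.2 CPM (-0.69). Fgfbp3, which binds fibroblast growth factors, was at 23.1, 18.9 and 16.4 CPM against 10.5, 9.60 and 11.04 CPM (-0.88). Gm40477 (-0.64) and Ptprz1 (-0.71), a receptor phosphatase of glia, were also lower in each IL-27 library. With no filter on low counts, Crhbp and Nefl passed, as given further on.

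**Figure D3:**
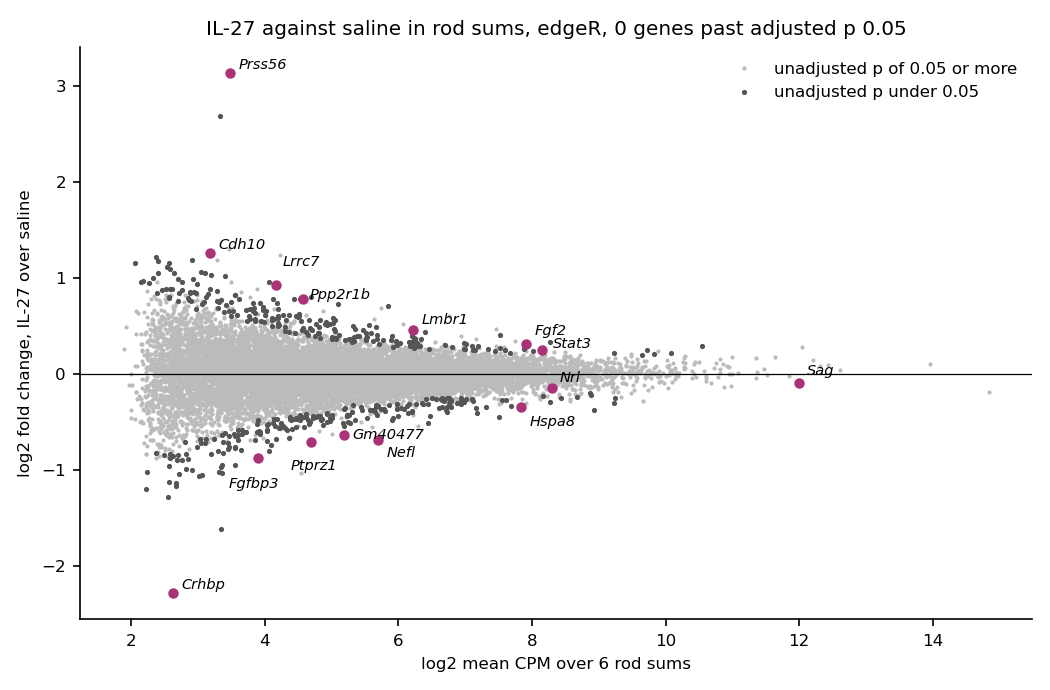
Each dot is 1 gene, with its mean level in rods on the horizontal axis (log2 mean CPM over 6 libraries) and the log2 fold change of IL-27 over saline on the vertical axis. Dark dots have an unadjusted p under 0.05, no gene passes an adjusted p of 0.05, and Prss56 (3.14) and Crhbp (-2.28) stand at the ends while Sag (-0.10) lies near 0.

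No gene of rod function passed the test. Of 20 phototransduction genes, 7 were higher and 13 lower with IL-27, with a median of -0.08, and none had an unadjusted p under 0.05. Sag differed by -0.10 (95% interval -0.28 to 0.08). The summed phototransduction level was 15250 to 15588 CPM in saline, and 15409, 12773 and 16454 CPM in IL-27, with replicate 5 low and replicate 10 high. In IL-27 replicate 5, Nrl, Pdc, Sag, Gnat1, Pde6g, the inhibitory subunit of the rod phosphodiesterase (250 CPM), and Gngt1, the gamma subunit of rod transducin (533 CPM), were each at their lowest of the 6 libraries.

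Outer segment and cilium genes split 19 higher and 18 lower (37 tested, median 0.00), photoreceptor transcription factors 9 and 7 (16 tested, median 0.01), ribbon synapse genes 16 and 14 (30 tested, median 0.00), and inner segment channels and pumps 10 and 6 (16 tested, median 0.01). None of these genes had an unadjusted p under 0.05. Prom1 was at 1168, 1198 and 1159 CPM in saline and 1192, 1186 and 1437 CPM in IL-27, with overlapping groups (log2 difference 0.12, edgeR unadjusted p = 0.21). Cacnb2, a subunit of voltage-gated calcium channels, was at 1920 to 2313 CPM over all libraries (0.01).

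In genes of rod death and stress, the lists also stayed near the median of all genes, with few exceptions. The cGMP, calpain and PARP genes divided 9 higher and 6 lower (15 tested, median 0.01) and those of apoptosis and necroptosis 10 and 10 (20 tested, median 0.01), with 0 of either under an unadjusted p of 0.05. Heat shock genes were lower in 15 of 20 (median -0.07). Hspa8, the constitutive HSP70, was at 272, 239 and 264 CPM in saline and 195, 168 and 238 CPM in IL-27, lower in each library (log2 difference -0.35, edgeR unadjusted p = 0.0079, which failed the adjustment). Hsp90ab1, a constitutive HSP90, was at 195, 163 and 179 CPM against 148, 118 and 152 CPM (-0.35), and Dnaja1, an HSP40 that works with HSP70, differed by -0.35 as well. For Hspa8 the closest values were 239 CPM in saline and 238 CPM in IL-27. Hspa8 (-0.58 to -0.18) and Hsp90ab1 (-0.38 to -0.19) were also lower with IL-27 in each of the 6 other types. Dnaja1 was lower in each of them but Muller nuclei (0.03).

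The rod injury response list holds genes known to rise in stressed rods and the receptors they use. Of its 20 tested genes, 13 were higher and 7 lower (median 0.06). Fgf2, a growth factor that protects photoreceptors, was at 196, 233 and 214 CPM in saline and 206, 325 and 270 CPM in IL-27. Its values in IL-27 replicates 5 and 10 lay above all saline values and that in replicate 4 did not (log2 difference 0.32, edgeR unadjusted p = 0.036). Stat3, the transcription factor downstream of gp130, also had only IL-27 replicates 5 and 10 above all saline values. It was at 253, 288 and 242 CPM against 242, 370 and 316 CPM (0.24, unadjusted p = 0.075 in edgeR). Lifr, the receptor of leukemia inhibitory factor, was at 162 to 201 CPM (0.05).

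Of 36 interferon and STAT response genes, 30 were higher with IL-27, beside 51.1% of all genes, and their median was 0.34 beside 0.00. None passed the adjusted test. Their sum was 1376, 1205 and 1025 CPM in saline and 1041, 1616 and 1464 CPM in IL-27, so that replicates 5 and 10 lay above all saline libraries and replicate 4 below all but saline replicate 6. Eif2ak2, the kinase PKR, was at 21.4, 15.7 and 11.3 CPM in saline and 17.9, 26.8 and 37.2 CPM in IL-27 (0.78, unadjusted p = 0.010 in edgeR), and Psmb9, an immunoproteasome subunit, differed by 0.87 (unadjusted p = 0.047). In neither gene were the groups separate. Microglia and Muller nuclei hold these transcripts at higher level than rods (7670, 3718 and 1288 CPM in sum). Eif2ak2 was at 303 CPM in microglia and 164 CPM in Muller nuclei. Eif2ak2 was also higher with IL-27 in the other types (0.18 to 0.52) but ganglion nuclei (-0.17). Psmb9 was higher in bipolar (0.70), amacrine (0.58) and Muller nuclei (0.31) and lower in microglia (-0.13). The summed microglia markers in rods were at 152 to 205 CPM in saline and 157 to 248 CPM in IL-27. The part of microglia and Muller glia in these differences was not tested.

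Of 80 ribosomal protein genes 68 were lower (median -0.07), as were 50 of 79 oxidative phosphorylation genes (median -0.07), 20 of 27 glycolysis genes (median -0.12) and 9 of 13 mitochondrially encoded genes (median -0.04). In each of these lists IL-27 replicate 5 or replicate 4 had the lowest sum and IL-27 replicate 10 the highest, so the groups overlapped. Antioxidant genes split 13 and 12, with Slc3a2, a subunit of the cystine transporter, at 54.7 to 63.1 CPM in saline and 69.2 to 75.3 CPM in IL-27 (0.32, edgeR unadjusted p = 0.026). Its partner Slc7a11 differed by -1.14, at 5.03 to 13.8 CPM in saline and 1.83 to 6.86 CPM in IL-27. Unfolded protein response genes (11 higher, 7 lower) and immediate early genes (9 and 5) included no gene under an unadjusted p of 0.05.

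Among markers of other cell types none passed the adjusted test in rods. Cone markers divided 4 higher and 5 lower, those of bipolar cells 5 and 4, those of microglia 3 and 4, those of ganglion cells 2 and 3, and those of Muller glia 5 and 7, while all 9 amacrine markers were lower (median -0.17). Of the bipolar markers, Grm6, the ON bipolar glutamate receptor, was at 18.4 to 22.6 CPM against 21.3 to 30.5 CPM (0.46, edgeR unadjusted p = 0.035). Isl1, a factor of ON bipolar cells, went the other way, at 24.9 to 45.3 CPM against 21.3 to 30.2 CPM (-0.46, unadjusted p = 0.045 in edgeR). Glul, the glutamine synthetase of Muller glia, was at 224, 176 and 237 CPM in saline and 186, 123 and 149 CPM in IL-27 (-0.45, edgeR unadjusted p = 0.0066). Tfap2a, an amacrine factor, differed by -0.78.

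**Figure D4:**
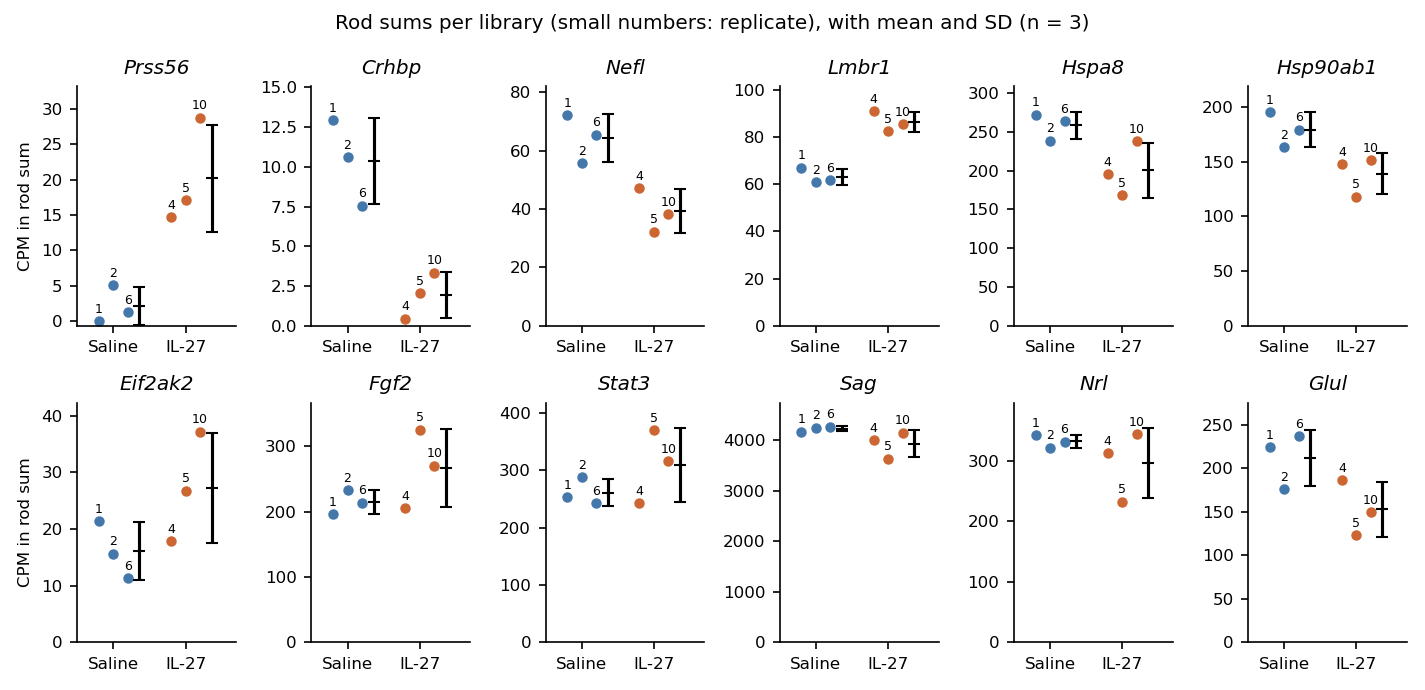
Each panel gives the CPM of 1 gene in the rod sum of each library (points numbered by replicate; blue, saline; orange, IL-27) with the mean and SD of 3 libraries. Prss56, Crhbp, Nefl, Lmbr1, Hspa8 and Hsp90ab1 show groups that do not overlap, as does Sag (lowest saline value 4176 CPM, highest IL-27 value 4156 CPM), and Fgf2, Stat3, Eif2ak2, Nrl and Glul show groups that do.

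The response of rods was also set against that of other types in the same retinas, as an interaction with the library as a block. Rods and cones differed in 0 of 11906 genes at an adjusted p of 0.05 in edgeR (488, or 4.1%, at an unadjusted p under 0.05). Against Muller nuclei the count was 0 of 14186 (665, 4.69%, unadjusted), and against bipolar nuclei 0 of 14540 (649, 4.46%, unadjusted). The count against Muller nuclei rose to 12 without IL-27 replicate 4.

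Fgf2 and Edn2, both known to rise in stressed photoreceptors, were then followed rod by rod. Edn2, endothelin 2, was at 72.1, 84.8 and 69.8 CPM in saline and at 75.6, 96.7 and 62.6 CPM in IL-27, and its cone mean was 8.49 CPM, a ratio of 9.06. In 6397 rods thinned to 1000 UMIs each, an Fgf2 UMI was present in 16.3%, 19.5% and 17.8% of rods in saline and in 17.7%, 25.6% and 21.3% in IL-27. An Edn2 UMI was present in 6.77%, 8.38% and 7.13% in saline and in 7.06%, 9.30% and 6.15% in IL-27. The groups overlapped for both genes. Amacrine nuclei thinned in the same way had Fgf2 in 1.04% and Edn2 in 0.101%, Muller nuclei in 5.30% and 0.168%, cones in 3.76% and 0.685%, bipolar nuclei in 1.66% and 0.182%, microglia in 1.87% and 0.531%, and ganglion nuclei in 0.283% and 0.106%. In every rod library both shares lay above these 6 means. Before thinning the median depths were 5458 to 6180 UMIs in amacrine nuclei, and 1387 to 1550 in rods with an Fgf2 UMI against 1416 to 1475.5 in rods without one.

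Rods with an Fgf2 UMI were more often positive for Edn2 in 5 of 6 libraries. The share was 10.5% ± 3.27 with and 6.78% ± 1.24 without an Fgf2 UMI (SD, n = 6 libraries, exact two-sided sign-flip permutation test p = 0.094, smallest possible p = 0.031), which did not pass, and 126 rods held both. The difference was at most 8.10 percentage points. In IL-27 replicate 10 it went the other way (5.71% against 6.28%).

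Rods with and without a UMI of each gene were then summed per library and compared with the library as a block in edgeR. This comparison was chosen after seeing the data. With Fgf2, 37 of 9577 genes were higher (0.386%) and 8 lower (0.0835%) at an adjusted p of 0.05, and with Edn2, 13 of 9143 were higher (0.142%) and 4 lower (0.0437%). The median over all genes was -0.00 and -0.05 on the log2 scale. The comparisons share most of their nuclei, so their values are given side by side.

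Agtpbp1, the deglutamylase whose loss in pcd mice kills Purkinje cells and photoreceptors, rose most surely. In rods with an Fgf2 UMI it was at 1623, 1872 and 1600 CPM in saline and 1522, 1813 and 1874 CPM in IL-27. In rods without one it was at 1049, 1259 and 942 CPM in saline and 1023, 1380 and 1434 CPM in IL-27. The level was higher with Fgf2 in all 6 libraries (log2 difference 0.54, SE 0.046, adjusted p = 1.11e-28 in edgeR), and likewise with Edn2 (0.56, SE 0.069, adjusted p = 1.70e-12). Agtpbp1 averaged 1250 CPM over all rods and 552 CPM in cones.

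Klhl29, a kelch-repeat gene, rose by 0.50 with Fgf2 and 0.43 with Edn2. It was at 993 to 1247 CPM with and 689 to 976 CPM without an Fgf2 UMI, higher in every library. Myo10, a filopodial myosin, rose by 0.57 and 0.71. It was at 441 to 610 CPM with and 275 to 422 CPM without an Fgf2 UMI. Antxr2, an anthrax toxin receptor that binds matrix proteins, rose by 0.47 and 0.71, and Zbtb7c, a zinc-finger repressor, by 0.62 and 0.88. These 5 genes passed in both comparisons without each library in turn. Slc1a1, a neuronal glutamate transporter (0.64 and 0.78), Slc2a13, a proton myo-inositol transporter (0.43 and 0.59), E2f6, a repressor of the E2F family (0.62 and 0.61), Gnb3 (0.46 and 0.41), Igsf11, an adhesion protein (0.31 and 0.47), and Syt1, the synaptic vesicle calcium sensor (0.19 and 0.23), also passed in both. All 6 of these lost their call with Edn2 when IL-27 replicate 4 was left out (adjusted p = 0.078 to 0.60 in edgeR). For Syt1 this was the only such loss. E2f6 lost its Edn2 call in 5 of the 6 fits with a library left out, Gnb3, Slc1a1 and Slc2a13 in 4, and Igsf11 in 3. With Fgf2, Slc1a1 lost it without saline replicate 2 (adjusted p = 0.072), and Slc2a13 and Igsf11 each lost it in 3 of the 6 fits with a library left out.

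Others passed with Fgf2 alone, and the difference between the comparisons was not tested. Stat3 rose by 0.37 with Fgf2, higher in all 6 libraries (SE 0.087, adjusted p = 0.0065 in edgeR), and differed by 0.36 with Edn2 (adjusted p = 0.55 in edgeR), where 468 rods rather than 1259 held the UMI. The call of Stat3 with Fgf2 was lost without saline replicate 1, saline replicate 6 or IL-27 replicate 4 (adjusted p = 0.058, 0.12 and 0.065 in edgeR). The photoreceptor genes Impg2, an interphotoreceptor matrix proteoglycan (0.37), Mak, a kinase of the connecting cilium (0.25), Cerkl, a retinitis pigmentosa gene (0.26), and Neurod1, a factor needed for photoreceptor survival (0.36), rose with Fgf2, as did Ahr, the aryl hydrocarbon receptor (0.40), Wwtr1, the TAZ coactivator (0.50), Rock2, a kinase of the actin cytoskeleton (0.43), and Cd47, a receptor that restrains phagocytosis (0.47). Lrrc2 rose by 0.54, from the list of genes with the highest rod ratio. Of the 37 genes higher with Fgf2, 25 had their highest mean in rods among the 7 types. The same share over all genes tested was not counted. The 37 were picked by a test on these same sums, and 33 were higher in every library. Without each library in turn 17 of the 37 passed, among them Impg2, Rock2, Cd47 and Lrrc2. Mak was lost without IL-27 replicate 10 (adjusted p = 0.11 in edgeR). Cerkl was lost without saline replicate 1 or 6 (0.075 and 0.16), Wwtr1 on removal of saline replicate 1 (0.42) or of IL-27 replicate 5 (0.25), and Ahr without any 1 saline library (0.062 to 0.25). Neurod1, higher in 5 of 6 libraries, passed only when all libraries or all but saline replicate 2 were used.

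Genes lower with Fgf2 were in part those of other neurons. Of the 8, 5 had their highest mean in another type, as did 12 of the 37 genes higher with Fgf2. Among these 12 was Cadps2 (1.13), at 206 CPM in Muller nuclei and 26.5 CPM in rods. Its call was lost in 3 of the 6 fits with a library left out. Asic2, an acid-sensing channel that averaged 4951 CPM in amacrine nuclei, was at 69.9 CPM with and 127 CPM without an Fgf2 UMI, fell by 0.86 on the log2 scale and was lower in 5 of 6 libraries. Kcnip4, a potassium channel partner at 13751 CPM in ganglion nuclei, was at 228 CPM with and 307 CPM without (-0.41). The 58 nuclei rich in Grik1, which held 4906 of the 9575 Kcnip4 UMIs in rods, are not in these levels. Tenm2, a teneurin, was at 61.2 against 101 CPM (-0.74) and Galntl6, a glycosyltransferase gene, at 39.0 against 69.9 CPM (-0.86), with 2763 and 4145 CPM in ganglion nuclei. Zan fell by 0.82 in all 6 libraries, although its highest mean was in rods, and lost its call without IL-27 replicate 10 (adjusted p = 0.63 in edgeR). With Edn2, Pde10a, a cyclic nucleotide phosphodiesterase, fell by 0.84, Pkn2, a kinase related to protein kinase C, by 0.85, Ptprn, a dense-core vesicle protein, by 0.83 and Dnm3, a dynamin, by 0.36. None of the genes lower with Edn2 passed without each library in turn, and of those lower with Fgf2 only Asic2 did.

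Genes of phototransduction did not pass in either comparison. With Fgf2, 4 of 20 were higher and 16 lower (median -0.07), and with Edn2 1 was higher and 19 lower (median -0.15). Sag differed by -0.05 (adjusted p = 0.89 in edgeR) and -0.00, and Nrl by 0.07 and -0.42. Edn2 itself differed by 0.55 with Fgf2 (adjusted p = 0.075 in edgeR), and Fgf2 by 0.46 with Edn2 (adjusted p = 0.22). Summed cone markers were at 931 CPM with and 764 CPM without an Fgf2 UMI, and at 989 against 781 CPM for Edn2. Gnb3, 1 gene of that sum, was at 656 against 480 CPM for Fgf2 and 688 against 500 CPM for Edn2. Muller markers were at 1826 against 1810 CPM and bipolar markers at 1186 against 1212 CPM for Fgf2. Amacrine markers were at 741 against 716 CPM and ganglion cell markers at 138 against 147 CPM, also for Fgf2. The part of cone transcripts in these differences was not tested.

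**Figure D5:**
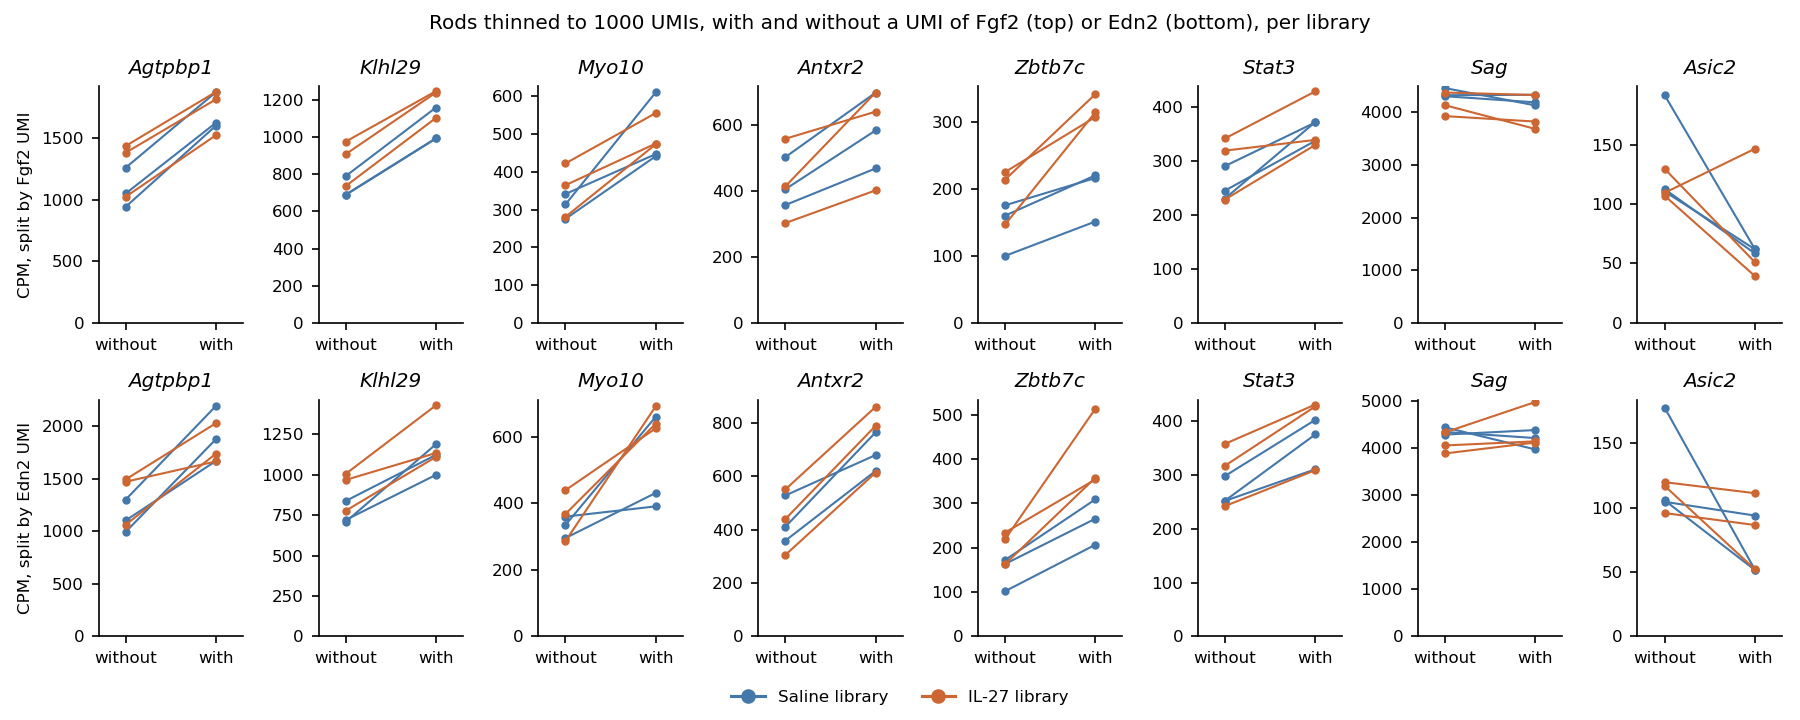
Lines join the CPM of rods without and with a UMI of Fgf2 (top row) or Edn2 (bottom row) in each library, after thinning to 1000 UMIs (blue, saline; orange, IL-27). Agtpbp1, Klhl29, Myo10, Antxr2 and Zbtb7c rise in all 6 libraries in both rows, Stat3 rises in the top row (0.37 on the log2 scale), Sag is lower in 5 of 6 libraries in the top row and higher in 4 of 6 in the bottom row, and Asic2 falls in 5 of 6 libraries in the top row.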

How the data were processed

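Frozen whole retinas of 6 rd10 mice (3 per group) were profiled as 3′ single-nucleus libraries. The authors deposited filtered matrices of UMI counts for 32285 gene identifiers, which are whole numbers and not normalised. The submitters' processing notes name Cell Ranger 9.0.1 and Seurat 5.2.1, while the matrix headers carry version 8.0.1. The genome build is not given in the sources used here. The methods of the study describe removal of predicted doublets before integration. The deposited matrices carry no doublet calls, so Scrublet (in scanpy 1.11.5) was run at an expected rate of 8% and its calls were removed only as an alternative.

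Nuclei were kept above 500 UMIs, from 200 genes and below 5% of UMIs from mitochondrial genes, and rods and 6 comparison types were taken by marker genes in Python 3.11.15 with scipy 1.17.1, pandas 2.3.3 and numpy 2.4.6. Counts were summed per library. Genes outside the rule with enough counts for the edgeR filter (minimum count 10) were tested with the quasi-likelihood method of edgeR 4.0.16 in R 4.3.3 under TMM normalisation, with Benjamini-Hochberg adjustment at 0.05. DESeq2 1.42.0 was the alternative. The difference between types was tested as an interaction with the library as a block. Rods with and without an Fgf2 or Edn2 UMI were thinned to 1000 UMIs, with a separate seed per library offset from 20. They were summed per library and tested in edgeR with the library as a block and a minimum count of 5. Rods with 3 or more Grik1 UMIs were left out of that comparison. Single values per library were compared by exact permutation over the 20 assignments of libraries, and shares within libraries by exact sign flips. Fold changes against libraries at 0 depend on the prior count of edgeR.

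On counts simulated for the rod comparison, 187 of 200 genes changed by 1.5 on the log2 scale were recovered (93.5%) with 5 false calls among 12127 genes. For the rod-minus-cone interaction 194 of 200 were recovered (13 false calls among 11737 genes), and for the Fgf2 comparison 198 of 200 genes changed by 1 (5 false calls among 9638 genes). The changed genes were drawn only from those above a count limit. The interaction and Fgf2 simulations used 1 fixed dispersion and the same expected profile for both parts. Smaller changes, the size of most differences reported here, were not simulated. The common biological coefficient of variation of the rod sums was 0.108.

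The rods, the gene lists and the tests were chosen with earlier results of these data known. Named genes were, for IL-27 against saline, genes with groups that do not overlap and the smallest p, up to 5 a direction where none passed, the up to 4 highest members of each list and those with an unadjusted p under 0.05, the 20 genes with the highest ratio of rods to other types at 50 CPM or more, and Prss56. Further members of the lists are named where a count is described, and the genes of the Fgf2 and Edn2 comparisons, the Grik1 cut and Il27ra were chosen after their values were seen. Names missing from the gene table (Cfap418, Mx1, Mx2) or shared by 2 identifiers (Aldoa, Ddit3) were not used, and some genes that the rule would name are not reported here. Promoter windows were matched by symbol to RefSeq on GRCm38.p6. Each group held 3 retinas, and errors are SD over libraries. PCR duplicates are collapsed by UMIs, and intervals and widths cover the spread between libraries, not capture of RNA from other cells.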

Additional observations from a re-analysis of the deposited data

How the results depend on the processing

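Of 23 alternatives to the comparison of IL-27 with saline in rods, 18 gave 0 calls, among them DESeq2, other normalisations, a filter at 30 counts, 2 or 4 rod genes in the rule, removal of predicted doublets and Xist as a covariate, and, chosen after seeing the data, no use of the 8 excluded genes and removal of nuclei of 2 types or rich in Grik1. With no filter on low counts 7 genes passed (Prss56, Mgp and Fkbp5 higher; Optc, Crhbp, Nefl and Fbln1 lower), without nuclei of outlying depth 1 (Prss56), without nuclei holding a Muller UMI 2 (Prss56 and Fbln1), and after thinning 1 (Prss56). The cause was not tested. Leaving out 1 library gave 0 to 1 calls in rods (1 without saline replicate 2). It gave 0 to 3 for rods minus cones (3 without IL-27 replicate 10, 2 without IL-27 replicate 4), 0 to 12 for rods minus Muller (12 without IL-27 replicate 4, 3 without saline replicate 1, 2 without IL-27 replicate 10) and 0 to 1 for rods minus bipolar nuclei (1 without IL-27 replicate 4 or 10). Of 32 genes followed, 31 kept their direction in every alternative run, but the size of 25 moved over 1.5 times in at least 1. Without use of the 8 excluded genes, Slc3a2 went from 0.32 to 0.056, Cdh10 from 1.26 to 0.41, Lrrc7 from 0.93 to 0.31, Ptprz1 from -0.71 to -0.19, Grm6 from 0.46 to 0.14 and Isl1 from -0.46 to -0.12. With 2 rod genes in the rule Slc7a11 went from -1.14 to -0.33. Without IL-27 replicate 5, Fgf2 went from 0.32 to 0.16, Stat3 from 0.24 to 0.10 and Nrl from -0.15 to -0.0094. Edn2 turned from 0.02 to -0.038 without nuclei of outlying depth, and ranged from -0.14 (IL-27 replicate 5 left out) to 0.18 with 1 library left out, with -0.012 and -0.024 when this was saline replicate 1 or 6. The comparisons by Fgf2 and Edn2 UMIs gave 109 and 64 calls without thinning (45 and 17 with it), 31 to 44 and 7 to 18 without 1 library (Edn2 7 without IL-27 replicate 4 and 10 without IL-27 replicate 10), and 45 and 18 with library totals in place of TMM. No paired analysis was possible because the groups share no replicate number (saline 1, 2 and 6; IL-27 4, 5 and 10).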

Other observations

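Single libraries stood out in a few rod genes without a difference between the groups. Mt1, a metallothionein that binds zinc, was at 130, 171 and 147 CPM in the saline libraries and at 116, 149 and 342 CPM in the IL-27 libraries, with IL-27 replicate 10 alone high (log2 difference 0.46, edgeR unadjusted p = 0.39). Nr4a1, an immediate early nuclear receptor, had the same library highest, at 97.4 CPM against 40.3 to 64.1 CPM in the other 5. Xiap, an inhibitor of caspases, was lowest there, at 255 CPM against 348 to 458 CPM. H2-K1, a class I histocompatibility gene, was highest in IL-27 replicate 5, at 170 CPM, against 72.4 to 124 CPM in the other libraries. Ttr, transthyretin of the pigmented epithelium, ranged from 8.23 CPM in IL-27 replicate 5 to 35.5 CPM in saline replicate 1, while Rpe65 was at 0.00 to 1.89 CPM.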
